A study of Saccharomyces cerevisiae with 72 samples.

Results

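The proteasome subunit genes of budding yeast were described across all strains and times of an estradiol induction experiment. They were chosen by name alone: every gene called RPN, RPT, PRE or PUP followed only by digits, and SCL1, without the transcription factor RPN4, at a mean of at least 1 TPM. This gave 33 of the 6848 genes that both deposited tables hold, and all 33 passed the filter in both tables. TPM is a gene's share of a library's reads after division by transcript length, so levels of different genes can be compared. The small lid subunit gene SEM1 falls outside the naming rule and was not counted. Of the 33, 14 encode the core particle, 18 the regulatory particle, and RPN14 encodes a chaperone that helps to assemble the base and is not a stable subunit.

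The proteasome is the protease of the ubiquitin system. Its barrel-shaped core particle is built of rings of alpha subunits, which form the gate, and beta subunits, of which PRE3, PUP1 and PRE2 carry the caspase-like, trypsin-like and chymotrypsin-like active sites. The regulatory particle consists of a base, whose RPT ATPases unfold the substrate, and a lid, in which RPN11 removes ubiquitin. In yeast, most of these genes are switched on by Rpn4, a short-lived transcription factor that the proteasome itself degrades, so that their mRNAs tend to move together, and Rpn4 binds a promoter element known as PACE.

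RNA was sequenced from bulk cultures in 72 libraries of asynchronous MATa haploid cells (YM-1 medium, dextrose at 2%), sampled before estradiol (0 min) and 20 and 60 min after 1 uM estradiol, with 3 biological replicates for each of 8 strains. All 8 strains carry ura3delta0, his3delta1, lypdelta0 and can1delta::STE2pr-SpHIS5, and all make the estradiol-activated factor Z3EV from the ACT1 promoter (HAP1+::NatMX::pACT1-Z3EV-ENO2term), so the controls hold the activator too. In the inducible strains the Z3EV-responsive promoter Z4pr, linked to URA3, drives a 3V5-tagged, KanMx-marked homeodomain repressor: YOX1 (Z3EVp_YOX1, strain YAG180), the phosphosite mutant yox1_9A (Z3EVp_yox1_9A, YMC213), YHP1 (Z3EVp_YHP1, YMC230) or the phosphosite mutant yhp1_13A (Z3EVp_yhp1_13A, YMC231). In the matching controls (ctrl_YOX1, YAG181; ctrl_yox1_9A, YMC214; ctrl_YHP1, YMC228; ctrl_yhp1_13A, YMC229) the same tagged allele stays at its own promoter and Z4pr stands before HO. Each genotype was represented by a single strain, and the 2 experiments, Yox1 and Yhp1, were deposited as separate tables of 36 libraries, so no test was made between them.

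The read depth behind the values is unknown, since only TPM was deposited and no counts were used. YOX1 transcript rose from between 19.2 and 31.4 TPM at 0 min to between 440.4 and 1245 TPM after estradiol in its 2 inducible strains, and YHP1 from between 20.1 and 23.8 TPM to between 737.3 and 914.0 TPM. The a-specific gene STE2 was at 127.9 TPM or more in every library and the alpha-specific gene MF(ALPHA)1 at 1.34 TPM or less, as the MATa label requires. The highest correlation of each library with any other of its experiment was 0.992 or more (Pearson, log2 scale). That other library could be of another strain or time, so this is no measure of agreement between replicates. In such bulk samples fewer cells that express a gene and less of its RNA per cell cannot be told apart.

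The promoters of the proteasome genes carry the PACE element far more often than promoters at large, and its sites are shown first. Whether the expression values below differ between genes that hold it and genes that lack it was not tested. The element was searched on both strands as GGTGGCAAA, in the window from 250 bases before to 50 bases after each gene's start, in the RefSeq R64 genome, the build the labels name. It was found at 27 of the 33 genes (81.8%) and at 72 of 6001 protein-coding promoters in all (1.2%). The site lay between 75 and 174 bases before the gene's start, with a median of 111 bases. It read in the gene's own direction at 19 of the 27. The sites of the genes that feature below are given 5′ to 3′ on the gene's strand with 10 flanking bases, and the capitals mark the element or, where it lies on the other strand, its reverse complement.
PRE3 (chrX:435035-435063, plus strand, beta subunit with the caspase-like site): aacggaatccGGTGGCAAAaaagggaaaa
RPN2 (chrIX:220801-220829, minus strand, scaffold of the base): atttattttcGGTGGCAAAactggataca
RPN5 (chrIV:190776-190804, plus strand, lid scaffold): ttgacttttcGGTGGCAAAatgcaaaggg
RPN6 (chrIV:286790-286818, minus strand, lid scaffold): tggttccaagGGTGGCAAAtgttggtaga
RPN11 (chrVI:153259-153287, plus strand, lid deubiquitinase): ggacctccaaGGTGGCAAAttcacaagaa
RPN12 (chrVI:252398-252426, plus strand, lid): ctacacattaTTTGCCACCcattgaaatt
RPT6 (chrVII:411352-411380, minus strand, base ATPase): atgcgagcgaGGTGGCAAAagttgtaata
RPN10 (chrVIII:498968-498996, plus strand, ubiquitin receptor): caggcgggttTTCGCCACCggaatttaca

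The last of these differs from the rest at 1 letter and is caught only by the looser form GGTGGCNAA. The looser form, which contains the strict one, was present at 29 of 33 genes (87.9%) and at 107 of the 6001 promoters (1.78%). It added RPN10 and RPN13, the ubiquitin receptors of the base, which left PRE5, PUP1, RPN8 and RPN14 with no match in this window. All 6 RPT ATPases held the strict form. Of other genes of the pathway, the ubiquitin gene UBI4, the ubiquitin-activating enzyme UBA1, the ATPase CDC48 and the proteasome-binding protein ECM29 held it too. None of the 9 assembly factors in the tables (UMP1, PBA1, ADD66, IRC25, POC4, NAS2, NAS6, HSM3 and TMA17) held either form, nor did RPN4. A match is a string of letters and was not tested for binding.

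Before estradiol, transcripts of the core particle were more abundant than those of the regulatory particle. Their levels at 0 min (means over the 12 libraries of an experiment) ran from 148.5 to 294.9 TPM in the Yox1 experiment, with a median of 222.5 TPM over the 14 genes. The 18 regulatory particle genes ran from 65.5 to 201.7 TPM, with a median of 127.8 TPM. In the Yhp1 experiment the medians were 234.2 and 129.9 TPM. Over all genes tested the median was 29.0 TPM in the Yox1 and 29.1 TPM in the Yhp1 experiment.

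The beta genes PRE4, PRE1, PRE2 and PRE3 stood at the top of this order in both experiments, and the other 3 beta genes lay among or below the alpha genes. PRE4, a beta subunit with no active site, was highest in the Yox1 experiment at 294.9 ± 14.1 TPM (SD, n = 12), and PRE1, also without an active site, in the Yhp1 experiment at 293.2 ± 25.1 TPM. PRE4 and PRE1 differed by less than their spread in either experiment, and so did the catalytic subunits PRE2 and PRE3, at 253.6 ± 35.7 and 244.9 ± 14.4 TPM in the Yox1 experiment. The third catalytic subunit, PUP1, was the lowest of the 7 beta genes at 178.7 ± 24.7 TPM there and 190.8 ± 13.2 TPM in the Yhp1 experiment.

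In the regulatory particle the lid was the most even group, from 110.8 to 193.7 TPM in the Yox1 experiment, and RPN3 led it. The base held the extremes there. RPT4 was the lowest subunit gene of all, at 65.5 ± 8.19 TPM, while RPT3 stood at 170.2 ± 25.6 TPM. RPN1 and RPN2, the large scaffolds of the base, stood at 88.1 ± 11.1 and 91.4 ± 5.12 TPM, within their spread of each other. RPN13 reached 201.7 ± 25.7 TPM. In the Yhp1 experiment it stood at 170.5 ± 14.5 TPM, below the lid gene RPN3 at 190.9 ± 10.4 TPM. The chaperone gene RPN14 lay apart at 25.0 ± 3.75 TPM in the Yox1 and 26.5 ± 1.87 TPM in the Yhp1 experiment.

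**Figure D1:**
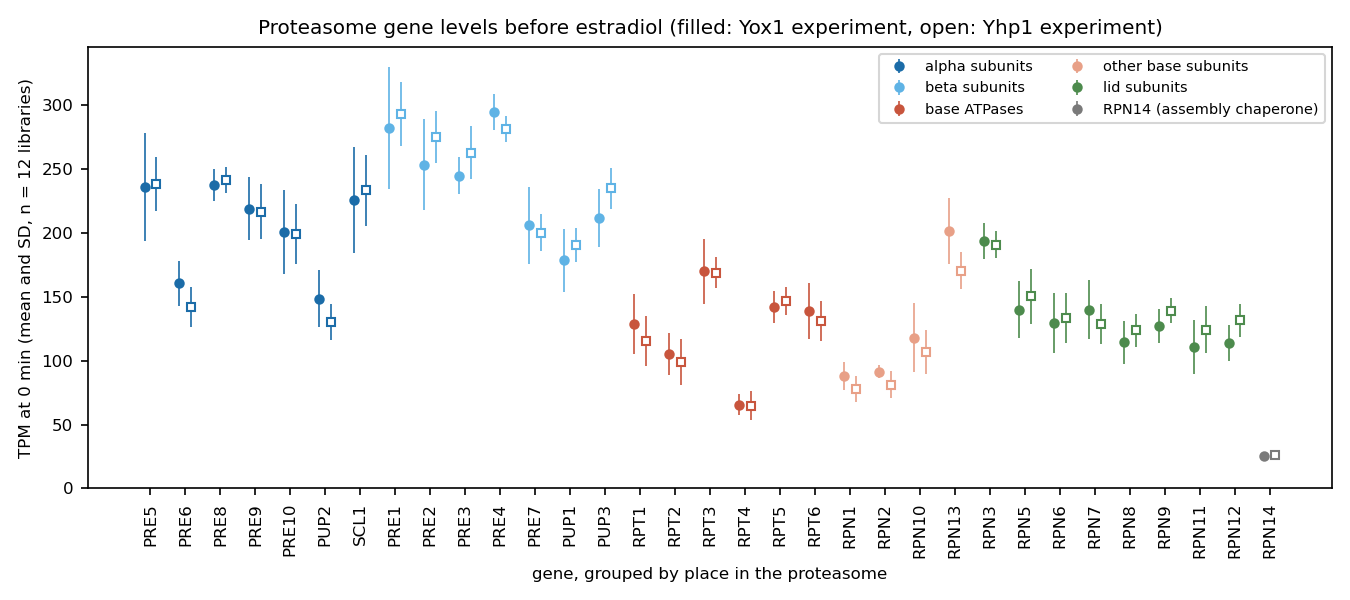
Level of each of the 33 genes before estradiol in TPM (y axis, mean and SD of 12 libraries) by gene (x axis), with filled symbols for the Yox1 and open symbols for the Yhp1 experiment, coloured by place in the proteasome. The beta genes PRE4, PRE1, PRE2 and PRE3 lie highest, with PRE4 at 294.9 TPM in the Yox1 experiment, and RPN14 lowest at 25.0 TPM.

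Across the 12 strain-by-time groups of an experiment these levels changed little. The highest group mean of a gene exceeded its lowest by a median of 1.25-fold over the 33 genes in the Yox1 experiment and 1.24-fold in the Yhp1 experiment. The same median over the genes that averaged 10 TPM or more was 1.501-fold and 1.408-fold. The widest span was that of RPN10 in the Yox1 experiment, 1.46-fold, and of PRE3 in the Yhp1 experiment, 1.48-fold. The narrowest was 1.05-fold, for RPT4 in the Yhp1 experiment.

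Differences between groups were tested with limma on log2(TPM + 1), with 1 model for the 12 groups of each experiment and Benjamini-Hochberg adjustment over all 6255 (Yox1) or 6230 (Yhp1) genes tested. A gene was called where the adjusted p was under 0.05 and the log2 difference beyond 0.58 in either direction, the thresholds of the study. The study applied them to another test, DESeq2 with shrunken log2 fold changes, so the calls here are not its own. By the limma calls none of the 33 genes was called in any of 38 comparisons. The numbers that passed an unadjusted p under 0.05 follow with each family of comparisons. A second count used the adjusted p alone. The pseudocount of 1 understates changes of genes with low TPM.

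The first question was what estradiol, time and handling did to these genes where no repressor was induced. In the controls of the Yox1 experiment few of the 33 genes passed a test. At 20 min, 1 gene in each control passed an unadjusted p under 0.05, and at 60 min again 1 gene in each, against none called, while 15.6% (ctrl_YOX1) and 16.0% (ctrl_yox1_9A) of all genes were called at 20 min and 3.87% and 3.71% at 60 min. The median log2 difference of the 33 genes was 0.08 and 0.02 in ctrl_YOX1 at 20 and 60 min (all genes 0.03 and 0.04), and -0.07 and -0.17 in ctrl_yox1_9A (all genes -0.03 and -0.01). From 20 to 60 min 7.35% and 8.89% of all genes were called and none of the 33, with 3 and 2 of them at an unadjusted p under 0.05. The median of -0.17 in ctrl_yox1_9A ranged from -0.32 to -0.07 with 1 library left out. The SE of the 33 differences had a median of 0.15 in these controls and 0.12 in those of the Yhp1 experiment, so the tests were less sensitive here.

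The gene that passed at 20 min was PRE3. Its values in ctrl_YOX1 were 241.8, 240.9 and 268.0 TPM at 0 min, 307.3, 305.2 and 303.0 TPM at 20 min and 241.9, 269.9 and 267.4 TPM at 60 min. All 3 libraries at 20 min lay above all those at 0 and 60 min. The log2 difference at 20 min was 0.29 (SE 0.06, limma adjusted p = 0.000601), a 1.22-fold rise. In both Yox1 controls all 20 min libraries of PRE4 and PRE8 also lay above those at 0 min, and those of PRE6 below. None of these genes reached an unadjusted p under 0.05 in limma, and such separation was not counted over all genes.

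The rise of PRE3 was seen in each of the other controls. In ctrl_yox1_9A it was 0.18 on the log2 scale (SE 0.06, limma adjusted p = 0.0237), in ctrl_YHP1 0.35 (SE 0.08, adjusted p = 0.00111) and in ctrl_yhp1_13A 0.31 (SE 0.08, adjusted p = 0.00411). In ctrl_YHP1 the libraries stood at 284.8, 272.6 and 287.5 TPM at 0 min and at 363.3, 313.0 and 408.3 TPM at 20 min, with no overlap. In ctrl_yox1_9A the call was lost in 4 of the 6 fits that left out 1 of the libraries compared, with differences between 0.16 and 0.21. In the other 3 controls it held in each of the 6. By 60 min PRE3 was within 0.05 of its starting level in ctrl_YOX1, 0.02 in ctrl_yox1_9A and 0.05 in both Yhp1 controls on the log2 scale. As the only 1 of the 33 genes higher by adjusted p in these controls at 20 min, it made up 3.03% of them, against 19.9%, 18.4%, 18.6% and 18.3% of all genes in ctrl_YOX1, ctrl_yox1_9A, ctrl_YHP1 and ctrl_yhp1_13A. With libraries shifted to a common median 4 genes were higher in each Yhp1 control, and the share of all genes was not counted there. With only the groups compared in the fit none was higher in ctrl_yhp1_13A, where PRE3 then had a limma adjusted p of 0.131.

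At 60 min the single gene that was higher was RPN2, the scaffold on which the base is held together. In ctrl_YHP1 it stood at 90.9, 67.9 and 76.9 TPM at 0 min and at 112.1, 102.4 and 94.95 TPM at 60 min. The ranges of the 2 times did not overlap. The log2 difference was 0.39 (SE 0.12, limma adjusted p = 0.0160).

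In ctrl_yhp1_13A the same gene stood at 100.8, 64.5 and 77.2 TPM at 0 min and at 105.4, 108.1 and 97.1 TPM at 60 min, and here replicate 1 at 0 min lay within the later range. RPN2 differed by 0.38 in this control (SE 0.12, limma adjusted p = 0.0213), by 0.22 in ctrl_YOX1 (SE 0.07, adjusted p = 0.0312) and by 0.23 in ctrl_yox1_9A (SE 0.07, adjusted p = 0.0225). All 4 differences were positive, but in no control did the call hold in every fit with a library left out. It was lost in 4, 2, 5 and 4 of 6 such fits in ctrl_yhp1_13A, ctrl_YHP1, ctrl_YOX1 and ctrl_yox1_9A. The differences stayed between 0.18 and 0.54. With the libraries set to a common median the call was lost in ctrl_YOX1 and ctrl_yox1_9A (0.16 and 0.23). By adjusted p alone 12.7%, 11.6%, 19.1% and 15.5% of all genes were higher at 60 min in ctrl_YOX1, ctrl_yox1_9A, ctrl_YHP1 and ctrl_yhp1_13A.

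In the controls of the Yhp1 experiment 9 and 8 of the 33 genes were lower at 60 min by adjusted p, and none passed the fold threshold. The median of the 33 log2 differences was -0.22 in both ctrl_YHP1 and ctrl_yhp1_13A, where the median of all genes was 0.03 and -0.01, and 28 and 27 of the 33 lay below 0. None was called, against 7.37% and 7.29% of all genes, and 15 and 17 of the 33 had an unadjusted p under 0.05. By adjusted p alone 9 were lower in ctrl_YHP1 (27.3% of them, 13.4% of all genes) and 8 in ctrl_yhp1_13A (24.2%, 16.6% of all genes). A shift of libraries to a common median gave 16 and 13, and fits of only the groups compared gave 1 and 0. The share of all genes was not counted in these or the other alternative fits. A block for replicate number in the model gave more in both controls, with the counts at the end of the text. What a number shares is not stated in the labels.

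The 8 lid genes all had values below 0 in both controls, with medians of -0.29 and -0.30, and whether the lid differed from the other subcomplexes was not tested. RPN9, RPN11 and RPN12 were lower by adjusted p in both. RPN11, the deubiquitinase, stood at 155.5, 101.4 and 127.5 TPM in ctrl_YHP1 at 0 min and at 96.7, 95.6 and 94.8 TPM at 60 min. The 3 later libraries lay close together and below all those at 0 min, which were spread widely.

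RPN11 differed by -0.40 in ctrl_YHP1 (SE 0.14, limma adjusted p = 0.0279) and by -0.42 in ctrl_yhp1_13A (SE 0.14, adjusted p = 0.0197), the lowest value of the 33 in each. In ctrl_yhp1_13A it was at 155.9, 95.3 and 123.6 TPM at 0 min and at 91.0, 91.0 and 92.0 TPM at 60 min. RPN12 differed by -0.30 and -0.31, RPN9 by -0.35 and -0.38, and the base ATPase gene RPT3 by -0.30 and -0.29. The calls of RPN11 were lost in 5 and 3 of 6 fits with a library left out. The remaining genes lower by adjusted p differed between the controls: the alpha genes SCL1, PRE5 and PRE10 and the beta genes PRE7 and PUP3 in ctrl_YHP1, and RPN3, RPN5, PRE1 and RPN14 in ctrl_yhp1_13A. The controls' changes were not shown to differ for any of these genes (limma, allele difference of the control change at 60 min, 0.0% of all genes called, none of the 33 at an unadjusted p under 0.05).

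In fits without a block for replicate number, these counts changed when single libraries of either time were left out. The fit with such a block and all libraries gave more lower genes in both controls. The proteasome genes of ctrl_YHP1 had a geometric mean of 167.9, 131.2 and 154.7 TPM at 0 min, and those of ctrl_yhp1_13A of 174.7, 125.3 and 153.1 TPM, so that replicate 2 was low and replicate 1 high in both. At 60 min the 6 libraries lay between 130.0 and 133.5 TPM. Without replicate 1 at 0 min, 1 gene was lower in ctrl_YHP1 and 2 in ctrl_yhp1_13A. Without replicate 2 the counts were 15 and 24, and in ctrl_yhp1_13A 1 gene then passed the fold threshold too. Without replicate 3 they were 2 and 4. Leaving out a library at 60 min gave 1, 3 and 3 in ctrl_YHP1 for replicates 1, 2 and 3, and 4, 3 and 7 in ctrl_yhp1_13A.

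Neither of the catalytic subunit genes PUP1 and PRE2 passed the test at 60 min. PRE2 stood at 290.8, 248.5 and 298.1 TPM in ctrl_YHP1 at 0 min, at 297.5, 237.4 and 330.4 TPM at 20 min and at 234.5, 211.9 and 249.3 TPM at 60 min. The last time overlapped the first, though each replicate number was lower at 60 than at 0 min, and the labels do not say what a number shares. The log2 difference of -0.26 (SE 0.12) did not pass (limma adjusted p = 0.0850). PUP1 stood at 199.8, 171.4 and 203.5 TPM at 0 min and at 177.6, 171.7 and 187.2 TPM at 60 min in the same control, a difference of -0.10 (SE 0.10).

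The ubiquitin receptor gene RPN10, which carries only the looser element, stood at 135.0, 83.4 and 116.2 TPM at 0 min and at 88.0, 77.7 and 85.8 TPM at 60 min in ctrl_YHP1. The difference of -0.38 (SE 0.16, limma adjusted p = 0.0707) did not pass, and the times overlapped. RPT6, an ATPase of the base, moved from 151.7, 110.6 and 133.4 TPM to 120.9, 110.8 and 108.7 TPM, with a difference of -0.20 (SE 0.12) and overlap. The chaperone gene RPN14 went from 26.8, 25.0 and 28.1 TPM to 20.5, 18.8 and 21.3 TPM in ctrl_yhp1_13A, with no overlap and a difference of -0.38 (SE 0.12, limma adjusted p = 0.0159).

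At 20 min the same controls showed smaller differences. The medians of the 33 were -0.09 in ctrl_YHP1 and -0.08 in ctrl_yhp1_13A, against -0.04 and -0.03 over all genes, of which 19.2% and 17.4% were called and none of the 33, with 4 and 3 of them at an unadjusted p under 0.05. By adjusted p alone the lid genes RPN5 and RPN11 were lower in ctrl_YHP1 and RPN5 in ctrl_yhp1_13A, 6.06% and 3.03% of the genes against 24.4% and 22.5% of all. RPN5 stood at 178.0, 126.7 and 151.1 TPM at 0 min and at 124.9, 104.6 and 112.7 TPM at 20 min in ctrl_YHP1, with no overlap. It differed by -0.40 (SE 0.13, limma adjusted p = 0.0133) there and by -0.34 (SE 0.13, adjusted p = 0.0383) in ctrl_yhp1_13A. The calls of RPN5 were lost in 2 and 4 of 6 fits with a library left out, with values from -0.52 to -0.28 and from -0.51 to -0.15, that of RPN11 in 4 of 6, and all of them with only the groups compared in the fit. In the Yox1 controls none was lower by adjusted p at 20 or 60 min, where 17.1% and 4.16% (ctrl_YOX1) and 19.6% and 5.58% (ctrl_yox1_9A) of all genes were. From 20 to 60 min 10.7% and 9.25% of all genes were called in the Yhp1 controls and none of the 33, with 7 and 8 at an unadjusted p under 0.05.

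**Figure D2:**
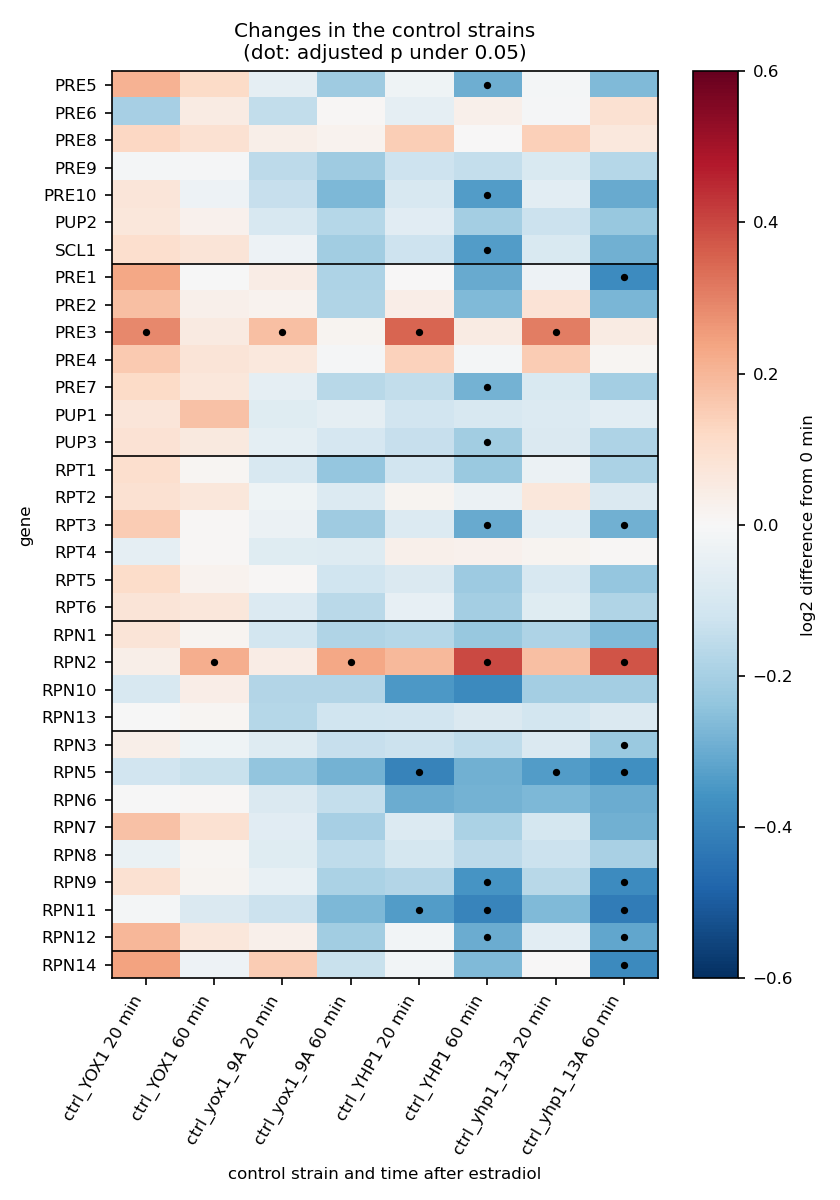
Log2 difference from 0 min (colour scale, red higher, blue lower) of each of the 33 genes (rows, grouped from the top as alpha, beta, base ATPase, other base, lid and RPN14) in the 4 control strains at 20 and 60 min (columns). Dots mark an adjusted p under 0.05, as for PRE3 at 20 min in all 4 controls and RPN2 at 60 min in all 4, and the 2 columns of the Yhp1 controls at 60 min hold 9 and 8 dots on lower genes.

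The transcription factor gene RPN4, which is no member of the group, fell clearly in the Yhp1 experiment. In ctrl_YHP1 it stood at 83.7, 98.2 and 105.3 TPM at 0 min, at 58.9, 44.3 and 48.0 TPM at 20 min and at 59.3, 49.9 and 61.0 TPM at 60 min. Over the 4 strains of this experiment its 12 libraries at 0 min lay between 83.7 and 125.6 TPM and its 24 later libraries between 44.3 and 69.1 TPM, with no overlap. The log2 differences in ctrl_YHP1 were -0.92 (SE 0.13, limma adjusted p = 1.96e-06) at 20 min and -0.74 (SE 0.13, adjusted p = 8.39e-05) at 60 min.

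In ctrl_yhp1_13A RPN4 differed by -0.90 at both times (limma adjusted p = 2.71e-06 and 8.62e-06), and the calls held in every fit that left out a library. In the Yox1 experiment the times overlapped: the 12 libraries at 0 min ran from 55.3 to 94.1 TPM and the later 24 from 51.8 to 102.7 TPM. The log2 differences there were 0.04 and 0.00 in ctrl_YOX1 and -0.07 and -0.27 in ctrl_yox1_9A (SE 0.23, adjusted p between 0.459 and 0.996). Whether the 2 experiments differ was not tested, since their tables were normalised separately. As mRNA levels were measured, the amount of Rpn4 protein is not known.

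**Figure D3:**
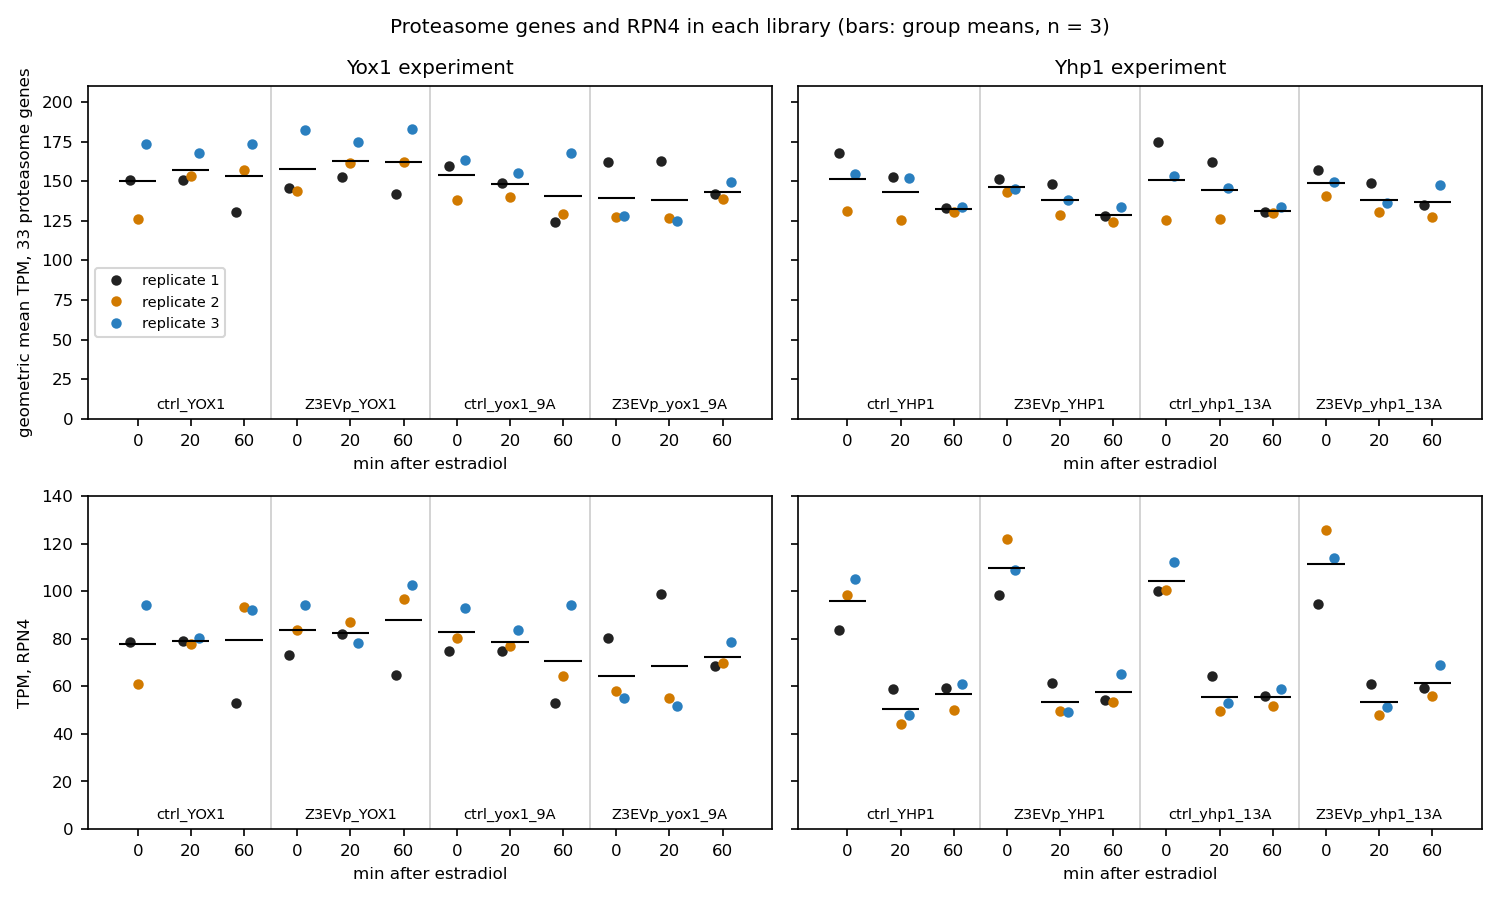
Geometric mean of the 33 genes in TPM (upper panels) and TPM of RPN4 (lower panels) in each library, by strain and min after estradiol, with points coloured by replicate number and bars for the means of 3 libraries. In the Yhp1 experiment RPN4 lies between 83.7 and 125.6 TPM at 0 min and at 69.1 TPM or less afterwards, while the 33 genes move from between 125.3 and 174.7 TPM to between 124.4 and 147.7 TPM at 60 min.

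Some other genes of the pathway passed the study's thresholds at 20 min, which no subunit gene did. TMA17, an assembly chaperone of the base, rose at 20 min in all 4 controls. Its values in ctrl_YOX1 were 35.6, 27.3 and 37.5 TPM at 0 min, 75.3, 76.4 and 77.3 TPM at 20 min and 44.7, 44.1 and 60.2 TPM at 60 min. The 20 min libraries lay above all the others.

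The log2 difference of TMA17 at 20 min was 1.18 in ctrl_YOX1 (SE 0.13, limma adjusted p = 1.20e-08), 1.14 in ctrl_yox1_9A, 0.95 in ctrl_YHP1 and 0.85 in ctrl_yhp1_13A (adjusted p = 0.00114 or less in each). The polyubiquitin gene UBI4 rose beside it, by 1.23, 1.07, 1.06 and 0.84 in the same order. Over all genes 15.6%, 16.0%, 19.2% and 17.4% were called at 20 min in ctrl_YOX1, ctrl_yox1_9A, ctrl_YHP1 and ctrl_yhp1_13A. The counts in the lists that follow were not tested against these shares. Of the 9 assembly factors TMA17 was the only one called in any control at 20 min, and in all 4 controls. Of 9 ubiquitin and Cdc48 genes the ubiquitin-conjugating enzyme UBC5 was called beside UBI4 in ctrl_yox1_9A (0.59) and ctrl_YHP1 (0.61), and ECM29 was called among 7 associated proteins in ctrl_YHP1 (0.72) and ctrl_yhp1_13A (0.63). These calls of UBC5 and ECM29 lay near the fold threshold of 0.58: with a library left out UBC5 fell to as little as 0.56 in both controls and ECM29 to 0.45 in ctrl_yhp1_13A, which ends the calls. UBI4 and ECM29 hold the PACE element and TMA17 and UBC5 do not. These changes in the controls went with a wider response: 13, 13, 9 and 8 of 14 general stress genes and 12, 10, 7 and 7 of 19 heat shock genes were called higher at 20 min in ctrl_YOX1, ctrl_yox1_9A, ctrl_YHP1 and ctrl_yhp1_13A, with 2 heat shock genes lower in each of the last pair. Its part in the values of the proteasome genes was not tested.

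A pair of other large complexes gives a scale for these values. The 8 genes of the CCT chaperonin, which folds actin and tubulin, all lay below 0 at 20 min in the 4 controls, with medians of -0.27, -0.39, -0.55 and -0.52 in the same order, and 2 and 3 of them were called lower in ctrl_YHP1 and ctrl_yhp1_13A. The 138 genes named as ribosomal proteins had medians of -0.24, -0.25, -0.35 and -0.35, with 1, 1, 7 and 7 called lower. The medians of the proteasome genes were 0.08, -0.07, -0.09 and -0.08.

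The second question was whether induction of either repressor, wild type or phosphosite mutant, altered the proteasome genes once the change of the matching control was subtracted. No gene of the 33 was called for any repressor at either time, and none passed an adjusted p under 0.05. At an unadjusted p under 0.05 (limma) there was 1 gene for Yox1-9A at 60 min, the beta subunit gene PUP3 (0.29, SE 0.12, adjusted p = 0.192), and none in the other 7 comparisons. The share of all genes called was 2.56% and 2.75% for Yox1 at 20 and 60 min, 2.35% and 4.33% for Yox1-9A, 0.0963% and 0.0803% for Yhp1, and 0.353% and 0.498% for Yhp1-13A.

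The medians of the 33 subtracted differences followed those of all genes. They were -0.03 and 0.04 for Yox1 at 20 and 60 min (all genes 0.02 and 0.05), 0.05 and 0.17 for Yox1-9A (0.07 and 0.13), -0.02 and -0.01 for Yhp1 (-0.01 and -0.05) and -0.04 and 0.06 for Yhp1-13A (-0.01 and 0.05). The single values lay between -0.19 and 0.39. Their precision was limited, with 95% limits that lay a median of 0.45 to either side in the Yox1 and 0.34 in the Yhp1 experiment, from 24 residual degrees of freedom. Between 60 and 20 min 0.528% and 1.15% of all genes were called for Yox1 and Yox1-9A, 0.0% for Yhp1 and Yhp1-13A, and none of the 33, of which none had an unadjusted p under 0.05.

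The highest value was that of RPN10 with Yox1-9A at 60 min. The 3 libraries of Z3EVp_yox1_9A stood at 127.8, 90.0 and 92.8 TPM at 0 min and at 118.2, 116.7 and 122.1 TPM at 60 min, and those of ctrl_yox1_9A at 126.0, 95.6 and 134.8 TPM and at 92.4, 92.6 and 131.8 TPM. In both strains the times overlapped. The subtracted difference of 0.39 (SE 0.29, limma adjusted p = 0.528) did not pass.

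The same held for the catalytic subunits. PUP1 had a subtracted difference of 0.37 with Yox1-9A at 60 min (SE 0.21, limma adjusted p = 0.381), PRE2 one of 0.34 (SE 0.23) and PRE3 one of 0.13 (SE 0.09), and RPT6, RPN11 and RPN14 had 0.38, 0.25 and 0.20. The lowest of the 33 there was RPN2, at -0.02. For Yhp1 at 60 min the same 6 genes lay between -0.11 (RPN14) and 0.07 (PRE3), and for Yhp1-13A between 0.05 (RPT6) and 0.13 (PRE2). RPN4 itself had subtracted differences between -0.17 and 0.45, with none called (limma adjusted p between 0.510 and 1.00).

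With Yox1-9A at 60 min 30 of the 33 values lay above 0, and 33 of 33 lay above 0 for Yox1-9A less Yox1, with a median of 0.18 against 0.08 for all genes. The median of all genes was above 0 in both comparisons. The 33 genes deviated together across libraries (median r 0.93), so such counts of signs are not counts of independent genes. At 0 min, 30 of the 33 genes lay lower in Z3EVp_yox1_9A than in ctrl_yox1_9A, with a median of -0.16. This count and median were not set against those of all genes. The geometric mean of the 33 genes was 162.4, 127.4 and 128.3 TPM in Z3EVp_yox1_9A at that time, 162.6, 126.8 and 124.8 TPM at 20 min and 141.9, 138.9 and 149.5 TPM at 60 min, while in ctrl_yox1_9A it was 159.6, 138.2 and 163.1 TPM at 0 min and 124.0, 129.4 and 167.8 TPM at 60 min. The values at 0 and 60 min overlapped in both strains. No allele difference passed the test: the share of all genes called for the induction at 20 and 60 min was 0.0% and 0.224% for Yox1-9A less Yox1 and 0.0% and 0.0161% for Yhp1-13A less Yhp1, and none of the 33 had an unadjusted p under 0.05. For the change of the controls the share was 0.0% in both experiments at both times.

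Before estradiol no difference between strains passed the test for these genes. Inducible and control strains differed at 0 min in 0.112% and 0.32% of all genes for YOX1 and yox1_9A and in 0.144% for each of YHP1 and yhp1_13A, and the controls with mutant and wild type alleles in 0.0% in either experiment. None of the 33 was among them, and at an unadjusted p under 0.05 there were 0, 2, 2 and 2 genes between inducible and control strains and none between controls. The lowest value was -0.34, for RPN12 in Z3EVp_yox1_9A against ctrl_yox1_9A.

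**Figure D4:**
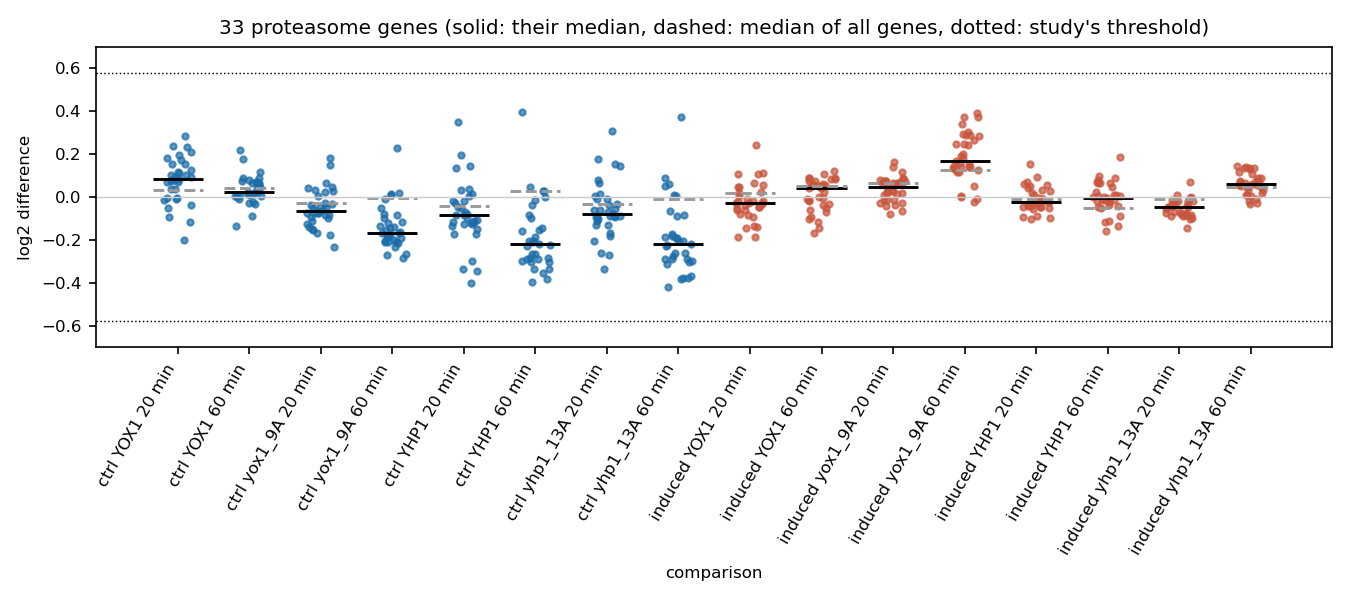
Log2 difference (y axis) of the 33 genes, 1 point a gene, in the 4 controls at 20 and 60 min against 0 min (blue) and for the 4 induced repressors after subtraction of the control (red). No point passes the dotted lines at 0.58 in either direction, and the solid bars (median of the 33) depart most from the dashed bars (median of all genes) in the Yhp1 controls at 60 min, at -0.22.

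Libraries of 1 group also differed from each other. Within a strain-by-time group the geometric mean of the 33 genes could differ by more than between times: in ctrl_YOX1 at 0 min it was 150.7, 125.9 and 173.7 TPM. Over the 36 libraries of an experiment the mean log2 deviation of the 33 genes from the group mean spanned 1.42-fold in the Yox1 and 1.39-fold in the Yhp1 experiment.

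The genes deviated together. Each gene's deviation was correlated with the mean deviation of the other 32 over the 36 libraries, which share culture, extraction and library, so r is given as a description. Its median was 0.93 in the Yox1 and 0.89 in the Yhp1 experiment, with RPN6, the lid scaffold, highest in both (0.99 and 0.98). Over all other genes tested the median r with the mean of the 33 was 0.42 and 0.36. Much of the transcriptome shared the deviation, and 46.0% and 38.4% of other genes had an r above 0.5, against 31 and 33 of the 33.

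Those that stood apart were RPN2 and PRE6 in the Yox1 experiment. RPN2 had an r of -0.03 there and 0.84 in the Yhp1 experiment, and PRE6, an alpha subunit, 0.47 and 0.74. Both hold the strict PACE element. The 4 genes with neither form of it, PRE5, PUP1, RPN8 and RPN14, had r of 0.97, 0.95, 0.91 and 0.92 in the Yox1 and 0.95, 0.90, 0.66 and 0.70 in the Yhp1 experiment. The CCT chaperonin genes had a median r of 0.88 and 0.84 with the proteasome genes, and the ribosomal protein genes 0.12 and -0.28.

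Across libraries RPN4 deviated with the proteasome genes in the Yox1 experiment but only weakly in the Yhp1 experiment. In the Yox1 experiment the deviations of RPN4 and their mean deviation gave Pearson's r of 0.87 and Spearman's rho of 0.84 over 36 libraries, and r was 0.85 without the 2 libraries farthest from the median of RPN4. In ctrl_YOX1 at 0 min RPN4 stood at 78.6, 61.0 and 94.1 TPM in the order of the geometric means above. In the Yhp1 experiment r was 0.33, rho was 0.37, and r without the 2 farthest libraries was 0.23. The regulator genes HSF1 and YAP1, which encode factors of the heat shock and oxidative stress responses, had r of 0.92 and 0.91 in the Yox1 and 0.81 and 0.89 in the Yhp1 experiment, and PDR1, a drug resistance factor, 0.75 and 0.85. PDR3, the remaining gene of that list, had r of -0.31 in the Yox1 and 0.78 in the Yhp1 experiment. The upper quartile of r over all other genes was 0.80 and 0.64, so the value of RPN4 was not particular to it. In the Yhp1 experiment the r of RPN4 lay below the median of all other genes, 0.36. The libraries of a replicate number may share a day or culture series, which the labels do not state.

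**Figure D5:**
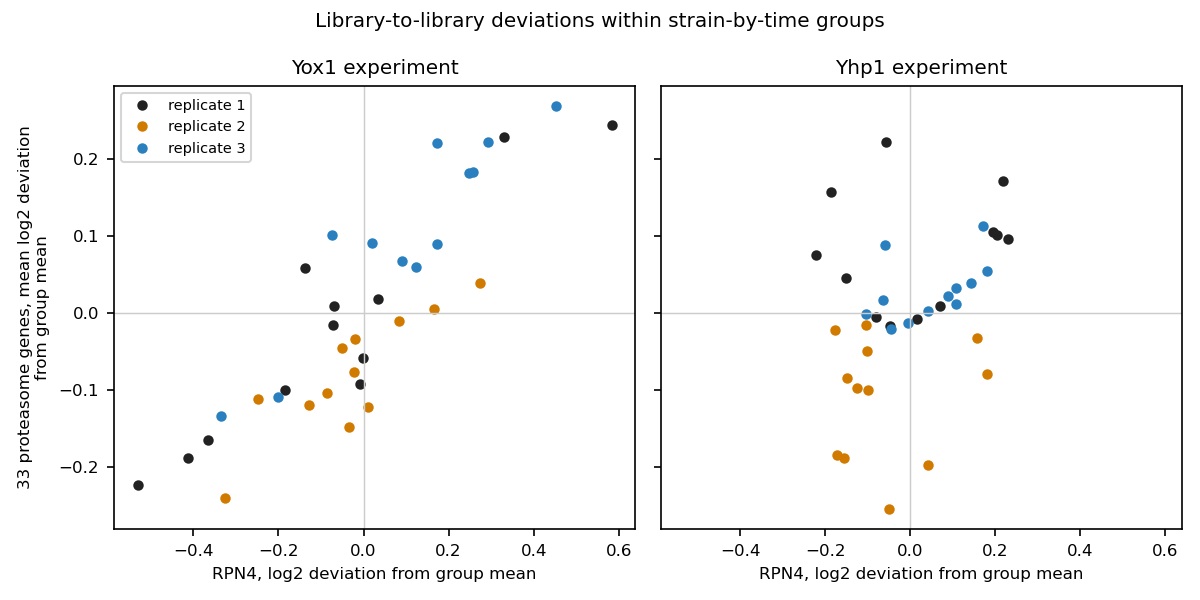
Mean log2 deviation of the 33 genes from their group mean (y axis) against the log2 deviation of RPN4 (x axis) in 36 libraries of each experiment, coloured by replicate number. In the Yox1 experiment the points rise together (r = 0.87), and in the Yhp1 experiment they form a loose cloud (r = 0.33).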

How the data were processed

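The authors aligned paired-end reads to R64-1-1 with STAR 2.5.3a, kept reads of mapping quality above 20, counted them with featureCounts 1.5.2 and deposited TPM values per gene, 36 libraries to a table. No strand setting is stated in the sources used. The labels speak of polyA depletion and the methods of poly-A purification. TPM keeps no depth, so no count test or counting interval was used. 4 lines per table with emptied values were not used.

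Log2(TPM + 1) values of genes that averaged 1 TPM or more were fitted with limma 3.58.1 in R 4.3.3 (variance trend, Benjamini-Hochberg over all genes). The script was tested on simulated data. Members and lists were chosen with earlier results of these data known. RPN10, RPN11, RPN14, RPT6 and the catalytic genes were named by rule, as were the highest and lowest values in each family. PRE6, RPN5, RPN6, RPN9, RPN12 and the regulators other than RPN4 were named after their values were seen. Replicates are biological per the labels. Alternatives covered pseudocounts, filters, centring, variance trend, the groups fitted, a replicate block and left-out libraries.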

Additional observations from a re-analysis of the deposited data

Results flagged for a closer look

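In 2 cases every library of one inducible strain lay on one side of its 0 min libraries and every library of another on the opposite side. Such separation was not counted over all genes, so how unusual these cases are is not known. PUP1, the beta subunit with the trypsin-like site, was at 188.8, 147.5 and 134.7 TPM at 0 min and 190.3, 198.1 and 193.9 TPM at 60 min in Z3EVp_yox1_9A, and at 181.4, 191.2 and 199.9 TPM and then 171.9, 170.4 and 180.2 TPM in Z3EVp_YHP1. The changes before subtraction were 0.32 and -0.13 on the log2 scale, 0.45 apart. PUP3, a beta subunit without an active site, changed by 0.19 and -0.11 in the same strains, 0.30 apart. The differences were not tested, because the strains belong to tables normalised separately. Neither gene was called after subtraction of the control. Among the proteasome genes and RPN4, 25 lay wholly below 0 min in Z3EVp_YHP1 at 60 min, 1 lay above and 8 overlapped. In ctrl_YHP1 at 60 min 14 lay below, 1 above and 19 overlapped. In Z3EVp_yox1_9A at 60 min 6 lay above and 28 overlapped. These counts, too, were not made over all genes, and they depend on the spread at 0 min. The geometric mean of the 33 genes at 0 min had an SD of 4.22 TPM in Z3EVp_YHP1 and 18.6 TPM in ctrl_YHP1. After subtraction of the control, 0 of the 33 had an unadjusted p under 0.05 (limma) for Yhp1 at 60 min.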

How the results depend on the processing

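All counts of the 33 genes here use the adjusted p alone. The share of all genes was not counted under the alternatives, so whether these counts are particular to the 33 genes is not known. No called value changed direction under any alternative, none of the 33 was called by the study's thresholds except 1 in ctrl_yhp1_13A at 60 min with a library left out, and pseudocounts of 0.1 and 5 or dropping RPN14 moved no count by over 1.5 times. With libraries shifted to a common median, 4 genes were higher at 20 min in both Yhp1 controls and 0 at 60 min in both Yox1 controls, while 16 and 13 were lower at 60 min and 17 and 11 from 20 to 60 min in ctrl_YHP1 and ctrl_yhp1_13A, and 1 from 20 to 60 min in ctrl_yox1_9A. With fits of only the groups compared, the counts of higher genes at 60 min were 0 in all 4 controls and at 20 min 0 in ctrl_yhp1_13A, and those of lower genes were 0 at 20 min and from 20 to 60 min in both Yhp1 controls, 1 and 0 at 60 min, and 0 from 20 to 60 min in ctrl_YOX1. Filters of 10 TPM or none each gave 1 higher and 1 lower from 20 to 60 min in ctrl_yox1_9A, and no filter or no variance trend 1 lower at 20 min in ctrl_YHP1.

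The replicate block gave 17 and 20 lower genes at 60 min in ctrl_YHP1 and ctrl_yhp1_13A, 6 and 4 at 20 min and 11 and 10 from 20 to 60 min, with 1 in ctrl_YOX1 at 20 min and 1 in ctrl_yox1_9A from 20 to 60 min. With the replicate block 4 and 3 were higher at 20 min in the Yhp1 controls and 1, 1, 2 and 1 from 20 to 60 min in ctrl_YHP1, ctrl_yhp1_13A, ctrl_YOX1 and ctrl_yox1_9A. The labels do not say what a number shares: 173 of 198 same-number pairs of libraries deviated together (r over 0.1) in the Yhp1 and 129 of 198 in the Yox1 experiment, and 36 and 27 of 36 libraries correlated best with their own number.

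Without subtraction of the control, 1 gene was higher at 20 min in each of the 4 inducible strains, 1 in Z3EVp_yhp1_13A and 2 in Z3EVp_yox1_9A at 60 min, and 7 were lower in Z3EVp_YHP1 at 60 min and 1 in Z3EVp_yhp1_13A at 20 min. The medians were then -0.22 in Z3EVp_YHP1 at 60 min and -0.17 at 60 min and -0.034 from 20 to 60 min in Z3EVp_yhp1_13A.

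With single libraries left out, lower genes ranged from 0 to 5 (20 min), 1 to 15 (60 min) and 0 to 11 (20 to 60 min) in ctrl_YHP1, from 0 to 8, 2 to 24 and 0 to 9 in ctrl_yhp1_13A, and from 0 to 1 from 20 to 60 min in both Yox1 controls. Higher genes ranged from 1 to 3 and 1 to 2 at 20 min in ctrl_YHP1 and ctrl_yhp1_13A, and from 0 to 1 at 60 min in all 4 controls, from 20 to 60 min in both Yox1 controls and at 20 min in ctrl_yox1_9A. The median of ctrl_yhp1_13A at 60 min ranged from -0.38 to -0.13, with 0 to 1 gene called. The median ranged from -0.13 to 0.11 for Z3EVp_yhp1_13A against its control at 0 min, and for yhp1_13A less YHP1 at 20 min from -0.11 to 0.12 in the controls and from -0.14 to 0.088 in the inductions. The causes were not tested. Read depth is unknown, so counting error could not be separated from the spread between libraries.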
